A study of Tursiops truncatus with 31 samples.

Results

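Translation initiation and elongation factors were followed in the whole blood of managed bottlenose dolphins. The 48 genes are those of the genome-based expression table whose symbol begins with EIF1 to EIF6, EEF1 or EEF2, leaving out the EIF2AK kinases, and they were picked by name alone from 9610 genes. They comprise 6 elongation factor genes (EEF1A1, EEF1B2, EEF1D, EEF1G, EEF2 and the kinase EEF2K), 7 genes of eIF2 and its exchange factor eIF2B, 12 subunits of eIF3, 14 genes of the eIF4 group with its inhibitors, and 9 other factors that act as single chains. EIF3C, EIF2S3, EIF5A, EIF1AX, EEF1A2 and EEF1E1 are not analysed here.

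The study asked how the blood transcriptome of healthy dolphins varies over a year and between individuals. It sequenced 31 RNA libraries from 4 Tursiops truncatus: 2 males, Hua aged 5 years with 8 libraries and Kai aged 17 years with 7, and 2 females, Keo aged 12 years with 9 libraries and Pele aged 28 years with 7. No animal was treated; all were under human care, blood was drawn into a tube that fixes RNA, and globin transcripts were cut down with RNase H before sequencing. Summer libraries (July to September) and winter libraries (December and February) numbered 8 each, with 4 of either sex in both seasons, and the other 15 libraries fell in the remaining months. Sex and age cannot be told apart from the individual, and p-values over libraries measure the spread between repeated draws of the same individuals. In whole blood, fewer cells of a type and less RNA per cell cannot be told apart.

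In eukaryotes, eIF2 brings the initiator tRNA to the small ribosomal subunit, and eIF2B recharges eIF2 with GTP. eIF3 is the large scaffold on the small subunit. eIF4E binds the cap of the mRNA, eIF4G bridges it to the ribosome and eIF4A unwinds the leader, while the 4E-binding proteins block the eIF4E to eIF4G contact. In elongation, eEF1A delivers aminoacyl-tRNA, the eEF1B subunits (EEF1B2, EEF1D and EEF1G) reload it with GTP, and eEF2 moves the ribosome along the mRNA. In human and mouse, many of these mRNAs carry a terminal oligopyrimidine (TOP) start that ties their translation to growth signals. Reticulocytes, the last red cell stage that holds RNA, still translate.

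Values are FPKM, read fragments scaled to transcript length and library total, which allow levels to be compared between genes within the limits of the annotation. The study describes the annotation of this genome as limited, with many reads outside annotated genes. The study gives a targeted sequencing depth, but the reads obtained in each library are unknown. The FPKM summed over all genes ran from 1122500 to 1625170 per library, of which the globins took 5.68% to 43.1% and the 48 members 0.507% to 1.93%. Because the rest of a library shrinks as abundant transcripts grow, each test was run on the values as deposited and after scaling each library to the median ratio of its genes (size factors 0.590 to 1.64). Of the blood marker lists, 6 of 7 erythroid, 5 of 6 neutrophil, 8 of 8 T cell, 4 of 4 B cell, 4 of 4 monocyte, 4 of 4 NK cell and 1 of 4 platelet genes were in the table. ALAS2, the heme synthesis enzyme of red cell precursors, averaged 30881 FPKM and the neutrophil gene S100A12 averaged 3261 FPKM, and markers of red and white cells were thus present in these whole-blood samples.

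The members were abundant genes. The median of their mean levels was 62.9 FPKM against 10.1 FPKM for all 9610 genes, and 16 of 48 averaged over 100 FPKM. By contrast, 8 of 48 averaged below 10 FPKM. EEF1A1, the GTPase that carries aminoacyl-tRNA to the ribosome (ENSTTRG00000000114), had the highest level of all members, 7121 ± 2516 FPKM (SD, n = 31), and ranked 29 of all genes. It ranged from 2580 FPKM in the July library of Kai to 12094.5 FPKM in the December library of Pele. EEF1A1 alone made up 44.5% ± 7.30 (SD, n = 31) of the summed FPKM of the 48 genes, from 29.4% in Kai in February to 56.8% in Keo in December. That lead depended on the quantification: in the alternative Cufflinks table EEF1A1 averaged 1186 FPKM and lay above EIF1 in 12 of 31 libraries, against 31 of 31 in the main table. EEF1A1 has many near-identical processed copies in mammalian genomes, so its level is uncertain, and the part of these copies was not tested.

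The other eEF1 genes formed a staircase below EEF1A1. EEF1G, the gamma subunit that anchors the exchange complex, averaged 1304 ± 356 FPKM (SD, n = 31) and ran from 646 to 1988 FPKM. EEF1B2, the beta exchange subunit, averaged 454 ± 209 FPKM (SD, n = 31), with the low value of 181 FPKM in Kai in July and the high value of 1148 FPKM in Hua in August. EEF1D, the delta exchange subunit, averaged 85.5 ± 26.8 FPKM (SD, n = 31). The order EEF1A1, EEF1G, EEF1B2, EEF1D held in 31 of 31 libraries, in both tables. EEF2, the translocase, averaged 579 ± 141 FPKM (SD, n = 31) and lay above its inhibitory kinase EEF2K, at 10.2 ± 4.72 FPKM, in 31 of 31 libraries.

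**Figure D1:**
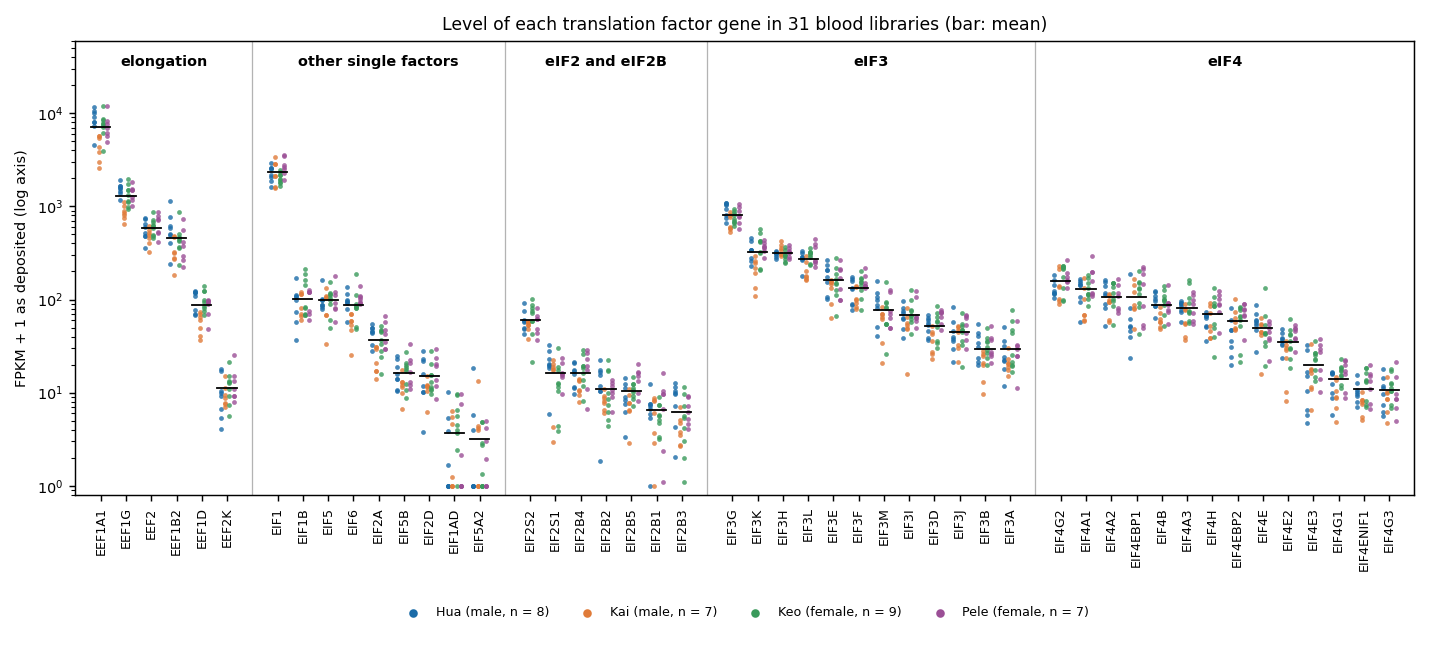
Level of the 48 members as FPKM + 1 on a log axis, grouped by role and ordered by mean; each point is 1 of 31 libraries, coloured by animal, and the bar is the mean. EEF1A1 stands at 7121 FPKM and EIF1 at 2329.6 FPKM, while EIF1AD and EIF5A2 lie at the bottom with many libraries at 0.

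Among the 9 single-chain factors, EIF1 stood alone. EIF1, which keeps the scanning ribosome open until the start codon is found, averaged 2329.6 ± 545 FPKM (SD, n = 31), from 1569 FPKM in Kai in July to 3539 FPKM in Pele in February. It held 15.7% ± 4.97 of the summed level of the members and ranked 84 of all genes. EIF5, the GTPase activator of eIF2, averaged 97.1 FPKM, and EIF6, which keeps the large ribosomal subunit from joining too early, averaged 86.1 FPKM. EIF2A, an alternative carrier of initiator tRNA that is unrelated to the eIF2 complex, averaged 35.9 FPKM. EIF5B, which joins the ribosomal subunits, averaged 15.1 FPKM, and EIF2D, a noncanonical tRNA delivery factor, averaged 14.0 FPKM. The lowest members were EIF1AD at 2.74 ± 3.10 FPKM (SD, n = 31), listed at 0 in 12 libraries, and EIF5A2 at 2.22 ± 3.79 FPKM (SD, n = 31), listed at 0 in 15 libraries. EIF5A2, the rarer form of the elongation-assisting factor eIF5A, reached 17.4 FPKM in Hua in December and 12.5 FPKM in Kai in February, and its other 29 libraries did not exceed 4.71 FPKM.

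The eIF2 and eIF2B genes were the lowest of the 5 role groups, with a median of 9.88 FPKM. EIF2S2, the beta subunit of eIF2, averaged 58.6 FPKM and EIF2S1, the alpha subunit whose phosphorylation shuts down initiation, averaged 15.5 FPKM. The eIF2B subunits came in the order EIF2B4 (delta) at 15.1 FPKM, EIF2B2 (beta) at 9.88 FPKM, EIF2B5 (epsilon, the catalytic subunit) at 9.34 FPKM, EIF2B1 (alpha) at 5.44 ± 3.38 FPKM (SD, n = 31) and EIF2B3 (gamma) at 5.22 ± 3.21 FPKM (SD, n = 31). EIF2B4 exceeded EIF2B5 in 29 of 31 libraries, but the neighbours EIF2B2 and EIF2B5 (15 of 31 libraries) and EIF2B1 and EIF2B3 (17 of 31) were not ordered beyond their spread. EIF2B1 was listed at 0 in 2 libraries.

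The 12 eIF3 genes spanned 28.1 to 799 FPKM. EIF3G, a peripheral RNA-binding subunit, led at 799 ± 168 FPKM (SD, n = 31), ahead of EIF3K at 324 FPKM, EIF3H at 315 FPKM and EIF3L at 274 FPKM in 31 of 31 libraries each. EIF3K, EIF3H and EIF3L followed without a fixed order: EIF3K exceeded EIF3H in 16 of 31 libraries, with 0 of 7 in Kai and 16 of the 24 libraries of the other animals. EIF3E averaged 160 ± 57.0 FPKM (SD, n = 31), and EIF3F, EIF3M, EIF3I, EIF3D and EIF3J lay between 44.1 and 132 FPKM. EIF3B and EIF3A, the large subunits around which the complex is built, had the lowest values, 28.8 and 28.1 FPKM.

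In the eIF4 group, levels ran from 9.60 FPKM for EIF4G3 to 158 FPKM for EIF4G2. EIF4A1, the main helicase, averaged 129 FPKM, EIF4A2, its close paralog, 107 FPKM, and EIF4A3, which works in the exon junction complex rather than in initiation, 81.0 FPKM. EIF4B and EIF4H, the helicase cofactors, averaged 86.4 and 69.8 FPKM. The cap-binding protein EIF4E averaged 49.0 FPKM, below its inhibitors EIF4EBP1 at 106 FPKM and EIF4EBP2 at 57.9 FPKM. EIF4ENIF1, which carries eIF4E into the nucleus, averaged 10.0 FPKM.

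Paralogs differed in how firmly they were ordered, and how reads shared between near-identical copies were split was not tested. EIF4G2, the truncated eIF4G relative that lacks the eIF4E site, exceeded the canonical scaffold EIF4G1 in 31 of 31 libraries, by 3.53 ± 0.40 on the log2(FPKM + 1) scale (SD, n = 31), and EIF4G3 by 3.94 ± 0.42. EIF4G1, at 13.0 FPKM, exceeded EIF4G3 in 23 of 31 libraries, with 7 of 7 in Pele and 3 of 7 in Kai. EIF1 exceeded its paralog EIF1B, at 101 FPKM, in 31 of 31 libraries by 4.59 ± 0.57 on the log2 scale. EIF2S2 exceeded EIF2S1 in 31 of 31 libraries by 2.01 ± 0.91. The helicases were less separate: EIF4A1 exceeded EIF4A2 in 21 of 31 libraries and the mean log2 difference, 0.24 ± 0.54, was smaller than its spread. Of the cap-binding genes, EIF4E exceeded EIF4E2, a repressive cap binder at 34.3 FPKM, in 24 of 31 libraries, and EIF4E3, at 18.6 FPKM, in 29 of 31, but in the Cufflinks table EIF4E exceeded EIF4E2 in only 15 of 31. EIF4EBP1 exceeded EIF4EBP2 in 23 of 31 libraries and exceeded EIF4E in 23 of 31. In Hua, EIF4EBP1 exceeded EIF4E in 3 of 8 libraries, with a log2 difference of 0.04 ± 0.99 (SD, n = 8), whereas the other 3 animals had differences of 1.19 to 1.48. In the Cufflinks table EIF4EBP1 exceeded EIF4E in 31 of 31 libraries, those of Hua included.

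**Figure D2:**
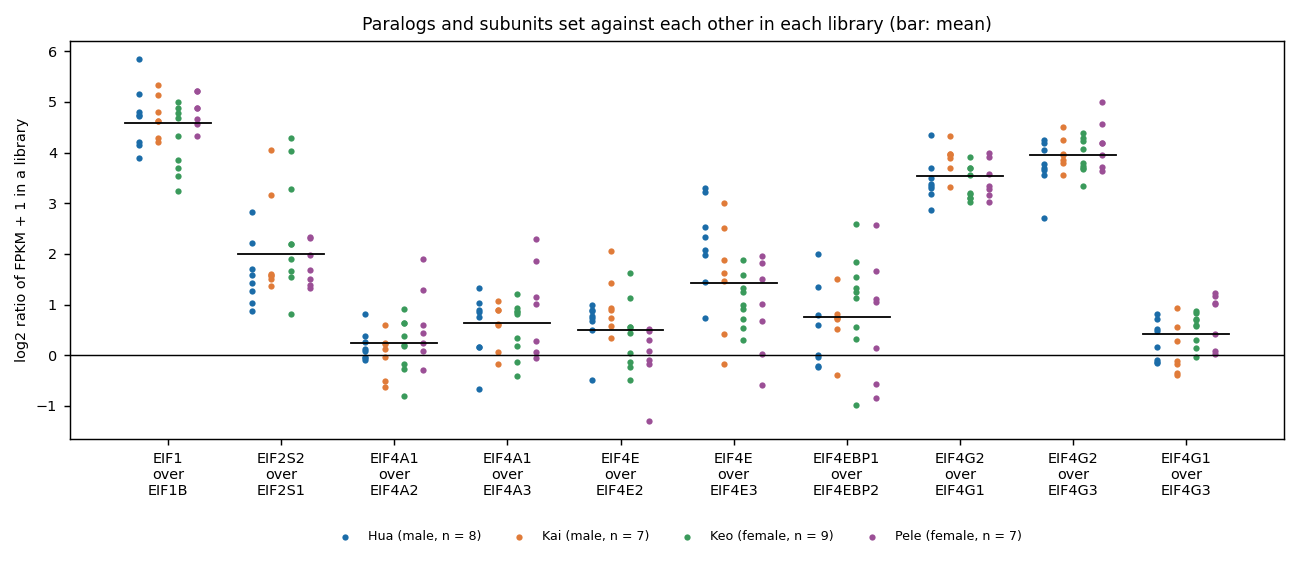
Log2 ratio of FPKM + 1 between paralogs or subunits in each of 31 libraries, coloured by animal, with the mean as a bar and equality at 0. EIF4G2 over EIF4G1, EIF1 over EIF1B and EIF2S2 over EIF2S1 lie above 0 in every library, while EIF4A1 over EIF4A2 and EIF4E over EIF4E2 cross it.

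The median member varied less between libraries than the median gene, but members were also more abundant, and genes were not matched for level. The median coefficient of variation over the 31 libraries was 37.5% for the 48 genes and 52.4% for all genes, or 29.4% and 47.6% after scaling. The eIF2 and eIF2B genes, whose median level of 9.88 FPKM was near that of all genes, had 48.8%, or 47.6% scaled. The other role groups had 33.3% to 39.7% as deposited. EIF3H, a subunit of the eIF3 octamer, was the steadiest as deposited, with 12.6% and a range of 245 to 420 FPKM. EIF3G, at 21.0%, and EIF1, at 23.4%, came next. Scaling changed this order: EIF3H rose to 32.8%, EIF3G to 30.5% and EIF1 to 35.6%, while EIF4G2 fell from 31.5% to 13.5% and EIF3L from 24.7% to 15.5%. EIF5A2, at 171%, EIF1AD, at 113%, and EIF2B1, at 62.2%, varied most as deposited, all of them with libraries at 0. Whole libraries moved together: the December library of Pele held the highest value of 15 members and the July library of Kai the lowest of 14. The median member deviated by 0.70 and -0.79 on the log2 scale in these 2 libraries, and the median gene by 0.69 and -0.55.

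The 4 dolphins differed in a set of these factors led by EEF1G, EEF1A1 and EEF1D. In the limma F test over the 4 animals, 8 of 48 members passed an adjusted p (Benjamini-Hochberg over all genes) of 0.05 on deposited values, when 10.3% of all genes did. On scaled values 6 of 48 passed, when 7.35% of all genes did. EEF1A1, EEF1G, EEF1D and EIF2A passed on both. EEF1B2, the remaining eEF1 gene, passed on neither, and its mean was lowest in Kai as deposited but in Pele after scaling. EIF3K, EIF6, EIF3L and EIF3D passed only as deposited, and EIF4B and EIF3H only after scaling. By role, 3 of 6 elongation genes passed on either scale, against 0 of 7 genes of eIF2 and eIF2B.

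EEF1A1 was lowest in Kai. Its deposited FPKM ran from 4554 to 11640.3 in Hua (median 8561), from 2580 to 5746 in Kai (median 4331), from 3969 to 12005 in Keo (median 7731) and from 4863 to 12094.5 in Pele (median 7015). After scaling, the 8 libraries of Hua (6275 to 12555 FPKM) lay wholly above the 7 of Kai (4003 to 6254 FPKM), and Keo and Pele overlapped with both. The highest and lowest animal means differed by 0.99 on the log2 scale as deposited (limma adjusted p = 0.0102) and by 0.79 scaled (adjusted p = 0.0126).

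EEF1G was likewise highest in Hua and lowest in Kai. Hua ran from 1168 through 1571 to 1904 FPKM, Kai from 646 through 857 to 1118 FPKM, Keo from 935 through 1310 to 1988 FPKM and Pele from 1005 through 1493 to 1823 FPKM, so Hua and Kai did not overlap as deposited. Means of the highest and lowest animal differed by 0.83 (limma adjusted p = 0.00433) and by 0.63 scaled (adjusted p = 0.0250), where the ranges of Hua and Kai overlapped. The lowest, median and highest EEF1D values of Hua were 66.7, 113 and 123 FPKM, and those of Kai 36.04, 60.0 and 72.2 FPKM. Keo had 66.5, 93.8 and 137 FPKM and Pele had 47.3, 89.8 and 98.5 FPKM. Its animal means spanned 0.84 (limma adjusted p = 0.0180) and 0.65 scaled (adjusted p = 0.0144), with Hua wholly above Kai only after scaling.

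EIF2A spanned 26.8 to 52.9 FPKM in Hua (median 44.4), 13.0 to 30.2 FPKM in Kai (median 19.6), 14.9 to 51.6 FPKM in Keo (median 35.7) and 28.2 to 65.6 FPKM in Pele (median 41.9). Kai was again low, and after scaling its range (22.0 to 31.3 FPKM) lay below that of Hua (34.6 to 57.4 FPKM). The span of its animal means was 0.96 (limma adjusted p = 0.0299) and 0.77 scaled (adjusted p = 0.0154). EIF4B, whose mRNA is a known TOP target in human cells, averaged 99.2 ± 7.09 scaled FPKM in Hua (SD, n = 8), 82.6 ± 13.6 in Keo (n = 9), 71.8 ± 11.5 in Kai (n = 7) and 70.5 ± 11.6 in Pele (n = 7). Scaled, it passed at a limma adjusted p = 0.0181, and as deposited it did not (adjusted p = 0.0636).

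EIF3H ran the other way. Kai had the highest scaled mean, 429 ± 153 FPKM (SD, n = 7), followed by Hua at 324 ± 58.2 (n = 8), Pele at 269 ± 47.7 (n = 7) and Keo at 258 ± 37.6 (n = 9), and the ranges overlapped. The span of 0.67 passed after scaling (limma adjusted p = 0.0207), whereas the deposited means, 294 to 344 FPKM, did not differ detectably (adjusted p = 0.473). The members called only as deposited were EIF3K (span 0.87, limma adjusted p = 0.0185), EIF6 (0.99, adjusted p = 0.0244), EIF3L (0.61, adjusted p = 0.0415) and EIF3D (0.92, adjusted p = 0.0428). Kai was lowest in all 4 of them on either scale, with 206 ± 67.9 FPKM of EIF3K (SD, n = 7) against 333 to 379 FPKM in the other animals.

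**Figure D3:**
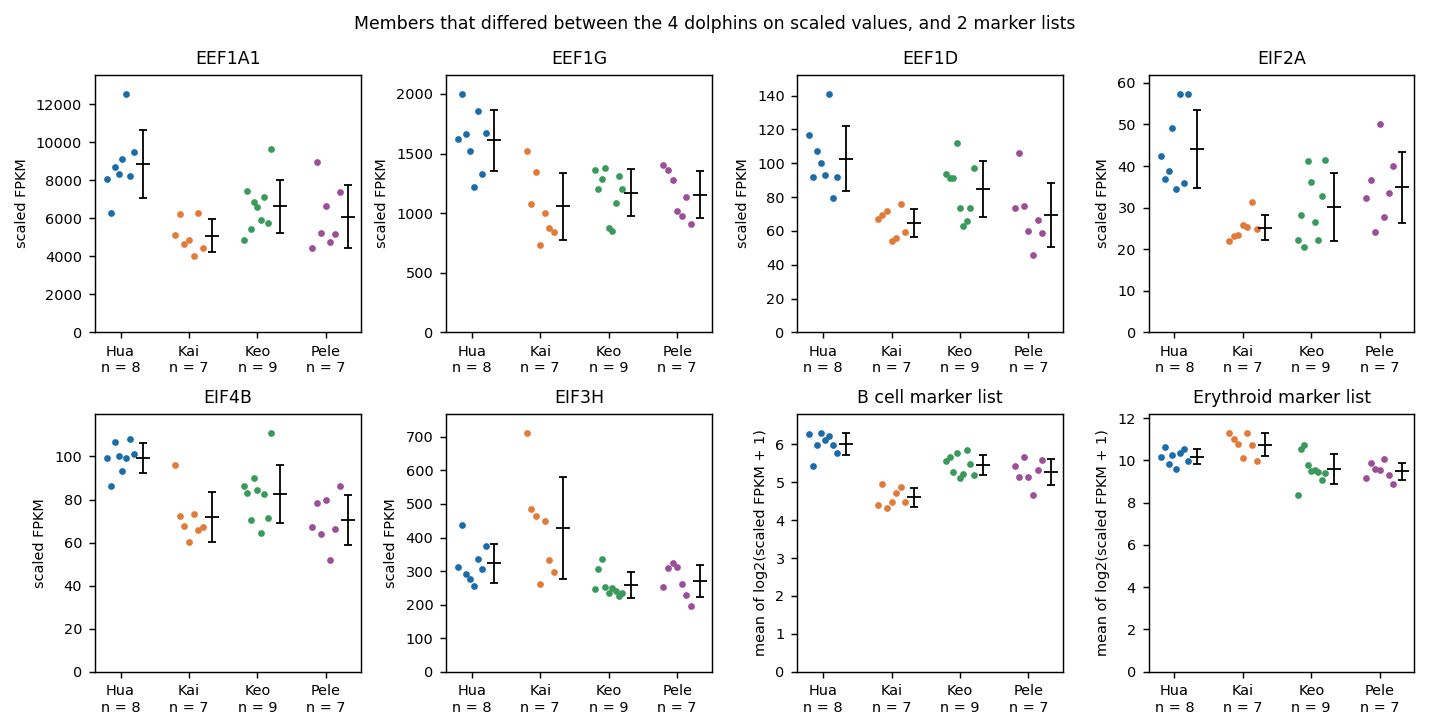
Scaled FPKM of the 6 members that passed between the 4 dolphins after scaling, and the mean log2(scaled FPKM + 1) of the B cell and erythroid marker lists; points are libraries, and bars show the mean and SD. EEF1A1, EEF1D and EIF2A have Hua wholly above Kai, EIF3H is highest in Kai, and the B cell list averages 6.01 in Hua and 4.60 in Kai.

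Kai set much of this pattern. As deposited, Kai had the lowest mean of 37 of 48 members, and of 54.2% of all genes. After scaling, Kai was lowest for 18 of 48 members and 32.5% of all genes, while Hua was highest for 27 of 48 members and 27.5% of all genes. Without the libraries of Kai, 0 members passed on either scale in limma, with 4 as deposited and 10 scaled at an unadjusted p under 0.05. The number of all genes at that p without Kai is not given here. With all 4 animals, 18 and 15 members were at that p, and 2947 and 2171 of 9610 genes. Without Hua, 5 passed as deposited and 1 scaled. Leaving out the July library of Kai left 2 calls as deposited and leaving out the February library left 3.

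Some marker lists of blood cells moved with the same animals. The 4 B cell genes, CD79A, CD79B, MS4A1 and CD22, were all measured, and none was listed at 0. Their summed level ran from 54.0 to 171 FPKM in Kai and from 342 to 797 FPKM in Hua, with 157 to 522 FPKM in Keo and 133 to 470 FPKM in Pele, so that Hua lay wholly above Kai. Scaled, the mean of the list was 6.01 ± 0.29 on the log2 scale in Hua (SD, n = 8) and 4.60 ± 0.24 in Kai (SD, n = 7). The monocyte list was lower in Hua, 5.89 ± 0.29, than in the other animals, 6.58 to 6.67. The erythroid list was highest in Kai, 10.7 ± 0.53, the animal with the highest EIF3H, and its summed level overlapped between all 4 animals. Other scaled lists had other patterns. The NK cell list was lowest in Keo, 3.73, against 4.41 to 4.72 in the others. The T cell list ran from 4.13 ± 0.64 in Kai to 4.65 ± 0.37 in Keo. The neutrophil list was alike in Hua, 9.51, and Kai, 9.59, against 10.1 in Keo and 9.94 in Pele. The part of these cell types in the EEF1A1, EEF1D, EEF1G, EIF2A, EIF4B and EIF3H differences was not tested.

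Comparing the 16 female with the 15 male libraries, 2 of 48 members passed as deposited, when 13.0% of all genes did, and both were higher in females. EIF4G1, the scaffold of the cap-binding complex, had a median of 9.42 FPKM in males and of 16.1 FPKM in females; males ran from 3.79 to 15.5 FPKM and females from 7.71 to 22.2 FPKM, so the sexes overlapped. Its difference was 0.60 ± 0.19 on the log2(FPKM + 1) scale (SE, limma adjusted p = 0.0381). The animals averaged 8.72 ± 3.52 FPKM (Kai), 11.7 ± 4.13 (Hua), 15.5 ± 5.44 (Pele) and 15.6 ± 3.65 (Keo), with n as above. EIF2B5, the catalytic subunit of eIF2B, had a median of 6.74 FPKM in males (1.91 to 13.2) and of 10.9 FPKM in females (6.12 to 19.4), which also overlapped. Its difference was 0.63 ± 0.21 (SE, limma adjusted p = 0.0397), and Pele was highest at 13.3 ± 4.17 FPKM (SD, n = 7).

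The female excess lay on a shift of the whole table. All genes had a median difference of 0.34 as deposited and of 0.04 after scaling, and the 48 members of 0.28 and -0.09. Scaled, 1 of 48 members passed, when 2.41% of all genes did: EIF3H was lower in females by -0.46 ± 0.12 (SE, limma adjusted p = 0.0285), while as deposited it differed by -0.09 ± 0.09 (adjusted p = 0.511). EIF4G1 and EIF2B5 kept their direction after scaling, 0.26 ± 0.14 and 0.31 ± 0.17, but no longer passed (limma adjusted p = 0.423 and 0.451). The ribosomal protein genes, which encode the ribosome itself, were also lower in females, 13 of 68 as deposited and 30 of 68 scaled, and so were 2 of 6 erythroid markers on either scale. Higher in females, like EIF4G1 and EIF2B5, were 4 of 5 neutrophil and 3 of 4 monocyte markers as deposited, with median differences of 0.79 and 0.83, and 0 and 1 of them after scaling in limma, where 3 of each list had an unadjusted p under 0.05. The part of these cells in the differences between the sexes was not tested.

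The sex calls rested on few animals. With no block, 12 members and 3074 of 9610 genes had an unadjusted p under 0.05 in limma as deposited. In limma with the animal as a random block 0 of 48 passed, with 11 at an unadjusted p under 0.05, and with 1 mean for each animal 0 passed, with 2 at that p. As deposited, 0 passed without Kai, without Keo or without Pele, with 5, 12 and 7 at an unadjusted p under 0.05. Without Hua, 15 passed, EIF4G1 and EIF2B5 among them, and all 15 were higher in females. The share of all genes that passed without Hua is not given here, so the 15 cannot be set against it. With all animals, 1162 of the 1252 genes that passed as deposited were higher in females. The scaled EIF3H call was kept without Hua and lost without Kai, where EEF1G and EIF3G passed, and without Keo or without Pele, where 0 passed in limma and 5 members had an unadjusted p under 0.05 in each case. Single libraries also decided them, since leaving out 1 library gave between 0 and 7 calls, with 12 of 31 libraries giving 0 and 10 to 12 members then at an unadjusted p under 0.05.

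**Figure D4:**
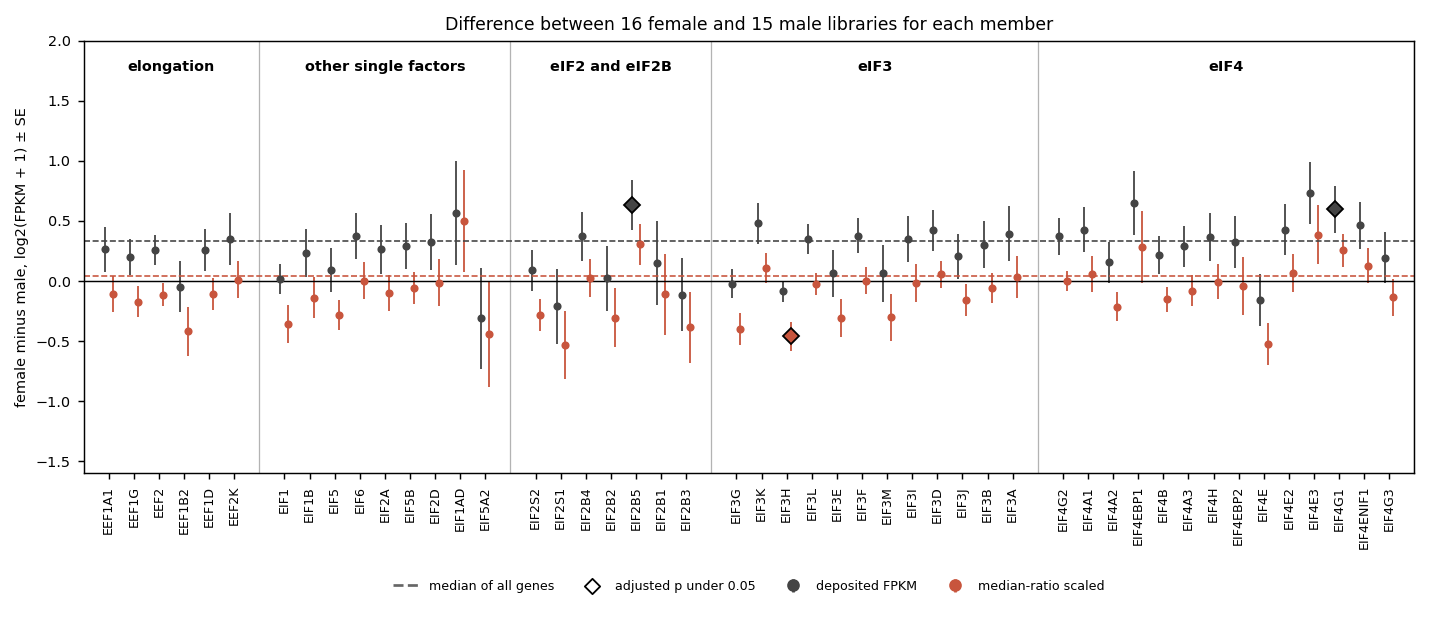
Female minus male difference of each member in log2(FPKM + 1) with its standard error, as deposited (dark) and after median-ratio scaling (red), grouped by role; dashed lines give the median of all 9610 genes, 0.34 and 0.04, and diamonds an adjusted p under 0.05. EIF4G1 and EIF2B5 passed as deposited and EIF3H passed after scaling.

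No member passed a seasonal test. In limma, summer against winter gave 0 of 48 members and 0% of all genes at an adjusted p of 0.05. At an unadjusted p under 0.05 there were 1 member and 285 of 9610 genes. The members had a median change of -0.18, against -0.04 for all genes. EIF1 was the closest as deposited. In FPKM, its summer values were 2087 and 1858 in Hua, 1569 and 1619.8 in Kai, 1638 in Keo, and 1908, 2254 and 2803 in Pele. Its winter values were 2589.7 and 2592 in Hua, 2824 and 2832 in Kai, 2342 and 1797 in Keo, and 3539 and 2541 in Pele. As deposited, in each animal except Pele the highest summer value lay below the lowest winter value, although the seasons overlapped over all animals. After scaling the EIF1 values of Kai overlapped as well, with 2434 FPKM in July and 2335 FPKM in December. None of the single-chain factors, EIF1 among them, then had an unadjusted p under 0.05 in limma. The deposited difference of EIF1 was -0.42 ± 0.18 (SE, limma unadjusted p = 0.0270, adjusted p = 0.999). EIF5A2 and EIF4A3 followed with -1.13 ± 0.58 and -0.49 ± 0.26 (SE, limma unadjusted p = 0.0625 and 0.0765), and EIF5A2 had 4 of 8 summer libraries at 0.

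Within the sexes the count was also 0 of 48 (0% of all genes) in limma. As deposited, 5 members in females and 2 in males had an unadjusted p under 0.05, against 561 and 158 of 9610 genes. After scaling, 1 member did in each sex, and the numbers of all genes at that p are not given here. The female libraries carried a shift of the whole table as deposited, with a median change of -0.16 for all genes and -0.32 for the members, against 0.02 and -0.13 scaled. In females EIF1B was lower in summer by -0.85 ± 0.28 (SE, limma unadjusted p = 0.00948, adjusted p = 0.735): the summer values were 80.5 FPKM in Keo and 74.4, 59.5 and 118 FPKM in Pele, and the winter values were 160 and 188.8 FPKM in Keo and 120.0 and 125 FPKM in Pele. These female seasons did not overlap as deposited. After scaling they did, since the September library of Pele had 87.2 FPKM and its December library 76.4 FPKM, and the difference was -0.64 ± 0.26 (SE, limma unadjusted p = 0.0324, adjusted p = 0.781). EEF1D (-0.65 ± 0.27) and EIF4B (-0.62 ± 0.27) came next, at limma unadjusted p = 0.0350 and 0.0417. In males, EIF5A2 changed by -2.14 ± 0.66 and EIF1 by -0.61 ± 0.23 (SE, limma unadjusted p = 0.00552 and 0.0192), followed by EIF4E at 0.67 ± 0.45 (unadjusted p = 0.153). The interaction of season with sex gave 0 of 48 (0% of all genes) in limma, with 2 members and 233 of 9610 genes at an unadjusted p under 0.05. The 2 members were EIF4E (-1.34 ± 0.58, limma unadjusted p = 0.0338) and EIF1B (-0.88 ± 0.41, limma unadjusted p = 0.0454), and EIF5A2 came next (2.02 ± 1.03, limma unadjusted p = 0.0637).

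A yearly cosine curve over all 31 libraries gave 0 of 48 (0% of all genes) in limma. At an unadjusted p under 0.05 there were 2 members and 729 of 9610 genes as deposited, and 5 members after scaling. The number of all genes at that p after scaling is not given here, so the 5 cannot be set against it. EIF1 had an amplitude of 0.23 on the log2 scale and a peak on day 59 of the year (limma unadjusted p = 0.0384, adjusted p = 0.643). EIF4G2 had an amplitude of 0.29 with a peak on day 286 (limma unadjusted p = 0.0481), and EIF5 came next with 0.29 and day 307 (unadjusted p = 0.0836).

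Members did not rise and fall as a block. Over the 31 libraries, which share animals and composition, the median Spearman correlation of the 1128 pairs of members was 0.39 as deposited and 0.05 after scaling, against 0.21 and 0.00 for pairs of all genes. The 4 eEF1 subunit genes stayed together after scaling, with a median rho of 0.62 over their 6 pairs, from 0.31 for EEF1B2 with EEF1G to 0.85 for EEF1A1 with EEF1B2. The pairs with the highest scaled rho were EEF1B2 with EIF3M at 0.88, EIF3E with EIF3M at 0.88 and EEF1A1 with EEF1B2, followed by EEF1B2 with EIF3E at 0.83. The lowest was EEF1G with EIF4G2 at -0.60. Of all genes with a symbol, those most like EEF1A1 over the 31 scaled libraries were RPL5 (rho 0.89), RPL27 (0.87), PLAC8 (0.86), EEF1B2 (0.85) and RPL3 (0.84).

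Individual members followed blood cell lists on 1 or both scales. These relations were read from the correlations of the 48 members with 8 list means, were singled out as high after the values were seen, and are descriptions. On scaled values EIF3H followed the erythroid mean with a Spearman rho of 0.87 and a Pearson r of 0.83 over 31 libraries (r 0.84 without the 2 libraries farthest from the median), and rho was 0.57 to 0.82 within each of the 4 animals. On deposited values the rho was -0.08 over all libraries and -0.68 to -0.25 within the 4 animals, so the direction within animals turned with the scaling. As deposited, all 48 members had a negative rho with the erythroid mean (median -0.53, from -0.84 to -0.03), and that of EIF3H was among the weakest. After scaling, 25 were positive and 23 negative, with a median of 0.02. Scaling divides a member and a list by the same size factor, and the part of this shared divisor in the scaled relations was not tested. The erythroid list also holds HBA and HBB, globin transcripts that the RNase H step cut down. EIF3G followed the ribosomal protein mean at a scaled rho of 0.74 (0.55 to 0.79 within animals) and EIF3H did so at 0.75, against deposited values of 0.28 and 0.10. EEF1D followed the B cell mean at 0.65 scaled and 0.82 deposited, and EEF1A1 at 0.67 and 0.79. Within animals, the rho of EEF1A1 with the B cell mean was 0.07 to 0.36 scaled and 0.32 to 0.86 as deposited. EIF4EBP1, the inhibitor of eIF4E that growth signals switch off, followed the monocyte mean at 0.71 scaled and 0.56 deposited, with 0.10 to 0.89 within animals on scaled and -0.13 to 0.93 on deposited values.

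**Figure D5:**
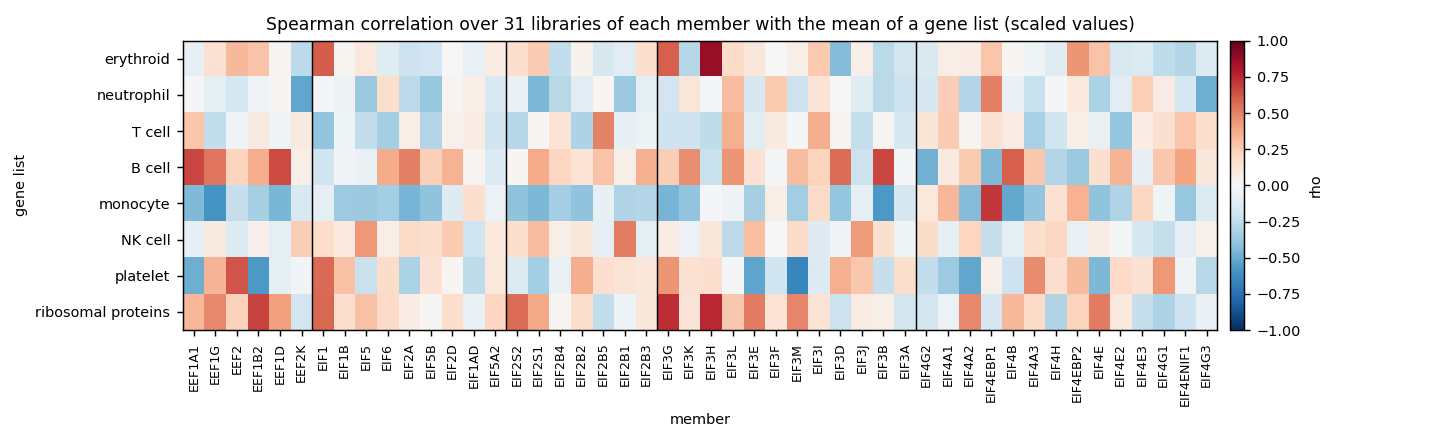
Spearman correlation over 31 libraries, on scaled values, of each member (columns, grouped by role) with the mean log2 level of 7 blood cell marker lists and of the 68 ribosomal protein genes (rows); red is positive and blue negative. EIF3H stands out for the erythroid list at 0.87, against -0.08 on deposited values. EIF3B and EEF1A1 stand out for the B cell list at 0.67 each and EIF4EBP1 for the monocyte list at 0.71.

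The other genes of the translation pathway were read against the share of all genes that passed between the 4 animals, 10.3% as deposited and 7.35% scaled. Of 68 ribosomal protein genes, 17 passed as deposited and 24 after scaling in limma. Of 21 aminoacyl-tRNA synthetase genes, which charge tRNAs, 5 passed as deposited (CARS, FARSB, GARS, KARS and VARS) and 4 after scaling, among them FARSB with a span of 1.65 and of 1.24 scaled (limma adjusted p = 0.000154 and 0.000740). Of 16 other initiation and poly(A) binding factors, CYFIP1 and GNB2L1, which encodes the ribosomal scaffold RACK1, passed on both scales. None of 18 translation control kinases and phosphatases, 11 termination and recycling factors, 5 selenocysteine and hypusine factors or 13 mitochondrial factors passed on either scale in limma, with 5, 2, 3 and 2 of them at an unadjusted p under 0.05 as deposited. At the share of all genes, lists of this size would hold few calls or none. Of 7 eIF2 stress response genes, GADD45A passed after scaling only (limma adjusted p = 0.0103). Among the 9 members known as TOP mRNAs in human or mouse, 3 passed as deposited (EEF1A1, EEF1D and EEF1G) and 5 after scaling, EIF3H and EIF4B being the others.

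Between the sexes 13.0% of all genes passed as deposited and 2.41% scaled. Of the 9610 genes, 1162 were higher and 90 lower in females as deposited, and 57 higher and 175 lower scaled. Among the ribosomal protein genes 13 of 68 passed as deposited and 30 of 68 scaled, all lower in females. The lists named below hold few genes, and their counts, all higher in females, were not tested against the share of all genes. In limma, 4 of 21 synthetase genes (CARS, FARSB, GARS and MARS) were higher in females as deposited, and 1, CARS, after scaling (0.77 and 0.41 scaled, adjusted p = 0.00162 and 0.0206). As deposited, 3 of 18 kinases and phosphatases were higher in females, PPP1CA, RPS6KB2 and TSC2, and so were ASNS, PELO, SECISBP2 and GFM2 of the stress, termination, selenocysteine and mitochondrial lists. None of these 7 passed after scaling.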

How the data were processed

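The authors trimmed reads with Trimmomatic, aligned them with Bowtie2 2.2.4 to the Ensembl dolphin genome turTru1 and estimated FPKM with RSEM 1.2.18; a table made with TopHat2 and Cufflinks 2.2.0 served as an alternative and holds 46 of the 48 members. The deposited FPKM table lists genes with a mean of at least 1 (lowest 1.00) and a value above 0 in at least 16 of 31 libraries. The reads obtained in each library are unknown, so no counting intervals are given.

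Animals and months came from the sample titles. The titles do not give sex, age or sampling date, which the study lists for each animal or sample. Values were tested as log2(FPKM + 1) with limma 3.58.1 (trended eBayes) in R 4.3.3, two-sided, over all 9610 genes with Benjamini-Hochberg adjustment and a threshold of 0.05. Folds on this scale understate changes of low genes. Median-ratio scaling used 6105 genes above 0 in every library. Scripts were tested on simulated data. Alternatives were a pseudocount of 0.1, a mean FPKM of at least 5, the Cufflinks table, blocks for the animal, and libraries or animals left out, some of which were added after seeing the data. Summer and winter libraries came from the same 4 animals, and the seasonal tests were fitted without a block, with the animal as a replicate block as an alternative.

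Named members were the 10 highest and 5 lowest means, the 3 highest and 3 lowest coefficients of variation, paralogs, and members past a threshold (at most 8) or the 3 smallest p. Members and lists were chosen with earlier results of these data known. A marker gene of the lists is not reported here, and the list means were computed without it. The assembly-based table without symbols and the authors' tables of fold changes and probabilities were not used here.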

Additional observations from a re-analysis of the deposited data

Results flagged for a closer look

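Among 26 members tested in each of the 4 animals, 9 values in 8 libraries stood apart from the rest of their animal. A rate of about 1 group in 20 would give 5.2 if values were normal and independent. The members share libraries and were named partly for their spread or small p in these data, so 5.2 is only a rough guide. EIF5 in the April library of Hua, at 162 FPKM against a next value of 99.5, was the widest gap relative to its range. The December library of Keo was high for EEF1B2, at 870.1 FPKM (next 502), and for EIF4E, at 131 FPKM (next 65.5). EIF6 was high in the February libraries of Keo, at 185 FPKM (next 110.3), and of Pele, at 140.0 FPKM (next 109). EIF4B was high in the December library of Pele, at 141 FPKM (next 90.4), and EIF3L was low in the March library of Hua, at 180 FPKM (next 262). EIF5A2 was high in the December library of Hua, at 17.4 FPKM (next 4.71), and in the February library of Kai, at 12.5 FPKM (next 3.38).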

How the results depend on the processing

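Of the counts of members past the threshold, those of all seasonal tests and of the cosine curve stayed at 0 under every alternative run, including the replicate block for the animal, which also gave 0. Between the 4 animals the count of 8 became 5 in the Cufflinks table, where EEF1A1 had an adjusted p of 0.0627. It became 5 without Hua (1 scaled), 0 without Kai (0 scaled), 4 without Pele and, scaled without Keo, 5. Leaving out 1 library gave 2 to 11 calls as deposited and 5 to 7 scaled. The July (2 calls) and February (3 calls) libraries of Kai moved it most, followed by the April and May libraries of Kai (5 each). For the sexes the 2 calls became 1 after scaling, 5 at a mean FPKM of at least 5, 0 with a random animal block, 0 with means of each animal and 1 without the July and August libraries of Pele. They became 15 without Hua (1 scaled) and 0 without Kai, 0 without Keo or Pele, and 0 scaled without Keo or Pele. Leaving out 1 library gave 0 to 7 calls. It gave 0 without the March or December library of Hua, the February, April, May, July or September library of Kai, the February library of Keo, or the February, May, September or December library of Pele. It gave 1 without the June, August, October or November library of Keo, 3 without the October library of Hua or the March or August library of Pele, 4 without the April library of Hua or the June library of Kai, 5 without the December library of Kai, 6 without the July library of Hua or the March library of Keo, and 7 without the April library of Keo. Levels were lower in the Cufflinks table: 1186 FPKM for EEF1A1, 1434 for EIF1, 542 for EEF1G, 355 for EIF3G, 157 for EEF2, 215 for EEF1B2, 157 for EIF3K, 139 for EIF3H, 116 for EIF3L and 68.4 for EIF3E. Their order across 46 members was alike (rho 0.99 across genes, which are not independent), with a median ratio of 0.40 and a range of 0.17 to 0.65. EIF4E exceeded EIF4E2 there in 15 libraries. The shares of all genes called under these alternatives are not given here, and the causes of these changes were not tested.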
